A study of Mus musculus with 4 samples.

Results

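The genes described here encode 8 costimulatory receptors of T cells: Cd28 and Icos of the CD28 family, the nectin-binding receptor gene Cd226, and Cd27, Tnfrsf4, Tnfrsf9, Tnfrsf18 and Tnfrsf1b of the tumour necrosis factor (TNF) receptor superfamily. They were chosen by name, and all array probes whose RefSeq accession belongs to one of them were used, which gave 9 probes of 56597. The 8 genes stand among 22905 genes with a usable probe. Tnfrsf9 had 2 probes and each other gene had 1.

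Untreated PD-1-/- C57BL/6 mice aged 1 to 3 months gave the cells, which were CD8 T cells of spleen and lymph node separated by flow cytometry into 4 subsets. P4 was CD44low CD62Llow, the subset the study set out to characterise. P3 was CD44high CD62Llow, the surface phenotype of effector and effector memory cells, P2 was CD44high CD62Lhigh, that of central memory cells, and P1 was CD44low CD62Lhigh, that of naive cells. All 4 subsets came from mice without PD-1, an inhibitory receptor, and no wild-type cells were analysed here. The sources used here do not state how many mice were pooled for a subset. Each subset was measured on 1 single-colour Agilent array, so that no difference between subsets has a replicate check, no test between subsets was possible, and no p-value is given.

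A T cell that binds antigen needs a further signal to divide, survive and make cytokines, and costimulatory receptors deliver it. CD28 is present on resting T cells and binds CD80 and CD86, while ICOS is induced after activation and binds ICOSL; both recruit phosphatidylinositol 3-kinase. CD226 binds CD155 (encoded by Pvr) and CD112 (encoded by Nectin2) and competes for them with the inhibitory receptor TIGIT. The TNF receptor members bind trimeric ligands and act through TRAF adaptors on the NF-kappaB pathway: CD27 is carried by naive T cells and binds CD70, whereas OX40 (Tnfrsf4), 4-1BB (Tnfrsf9) and GITR (Tnfrsf18) are known as receptors of activated T cells and of regulatory T cells.

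Levels are given as log2 of the processed signal minus log2 of the 75th percentile of the same array, so that 0 is a spot as bright as that percentile. Levels of different probes are not comparable, and each order below is within 1 probe. Each of the 9 probes stood well above background in every subset, and 0 of the 9 spots lay in a locally bright area of an array. Each probe was a single spot, and the only error available is that estimated by the scanner software. It gives a difference between subsets a 95% half-width of 0.40 to 0.43 on the log2 scale and covers spot noise within an array, not variation between mice, sorts or labelling reactions. Over all arrays, probes well above background numbered 27825 to 30804, and genes that differed by 2-fold or more made up 7.28% (P4 minus P1) to 19.6% (P3 minus P1) of those measured. Transcripts of the 6 CD8 T cell markers (Cd8a, Cd8b1, Cd3d, Cd3e, Cd3g and Cd247) were well above background in every subset, with 0 of 6 differing by 2-fold in each pair. Cd44, which encodes a marker used for the sort, had levels of -1.24 in P4, 2.11 in P3, 2.26 in P2 and -1.80 in P1, and was thus high in both CD44high subsets. Pdcd1, which encodes PD-1, was also read, with levels of 1.70 in P4, 1.76 in P3, -3.06 in P2 and -3.30 in P1. Whether its probe reads the deleted part of the gene was not examined, and its spot lay in a locally bright area of the P4 and P2 arrays.

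Tnfrsf9 showed the largest differences among the 8 receptors. It encodes 4-1BB, a receptor induced on CD8 T cells by antigen and known for sustaining their survival. Its brighter probe had levels of 3.63 in P4, 2.73 in P3, 0.09 in P2 and -0.18 in P1. The dimmer probe had levels of 1.47 in P4, 0.79 in P3, -2.03 in P2 and -2.47 in P1. Both probes gave the order P4, P3, P2, P1, with both CD62Llow subsets far above both CD62Lhigh subsets.

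P4 exceeded P1 in Tnfrsf9 by 3.81 ± 0.40 on the log2 scale (14.03-fold; the ± is the scanner error's 95% half-width) with the brighter probe and by 3.94 ± 0.42 (15.4-fold) with the dimmer one. That difference ranked 77th from the highest among 13156 measured genes. Against P2, P4 was higher by 3.54 ± 0.40 (11.7-fold) and 3.51 ± 0.41 (11.4-fold) with the brighter and the dimmer probe, which ranked 40th of 13125 genes by the brighter one. P4 was also higher than P3, by 0.90 ± 0.40 (1.87-fold) and 0.68 ± 0.40 (1.61-fold), which is beyond the scanner error with both probes but below 2-fold. P3 was higher than P1 by 2.91 ± 0.40 (7.50-fold) and than P2 by 2.64 ± 0.40 (6.23-fold). P2 and P1 were close, with a P2 minus P1 difference of 0.27 ± 0.40 by the brighter probe and 0.43 ± 0.43, at the edge of the scanner error, by the dimmer one.

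**Figure D1:**
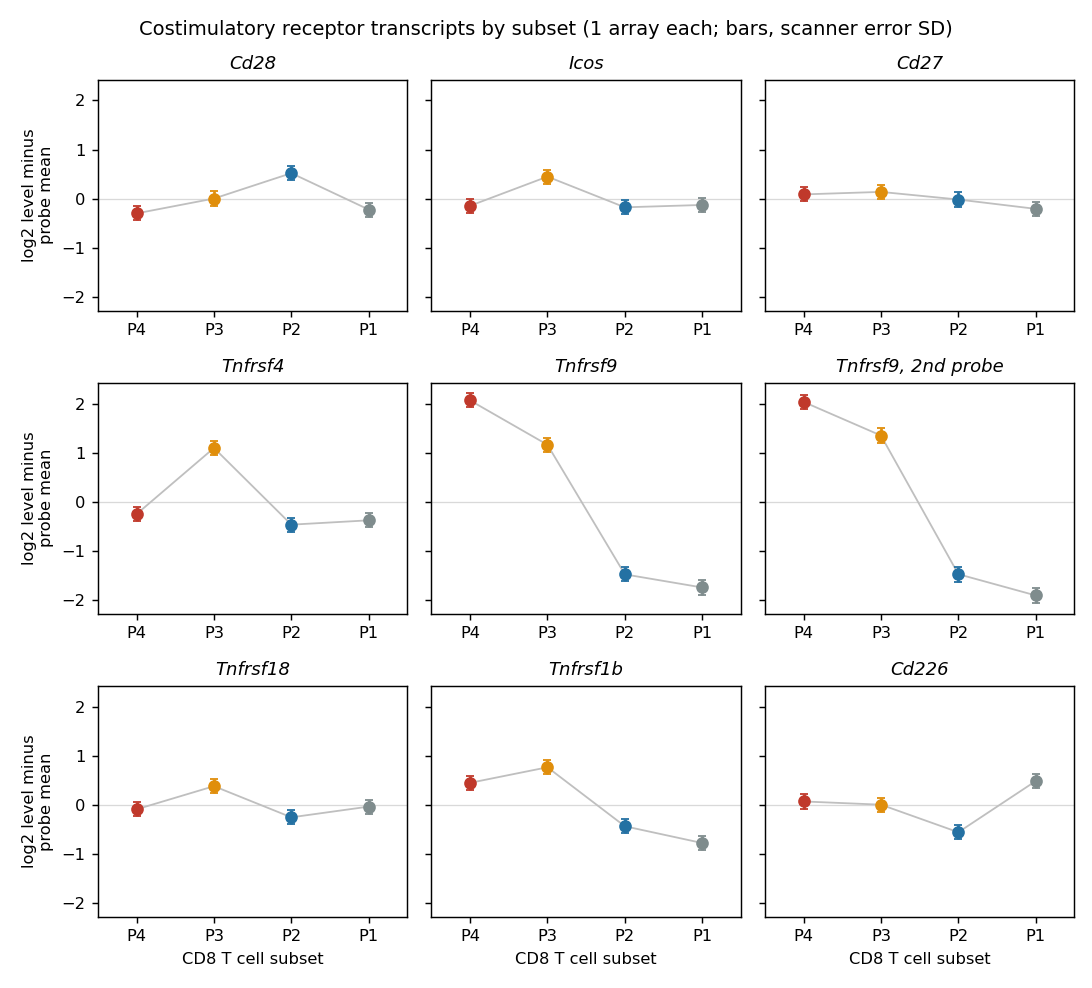
Level of each receptor transcript by subset, as log2 signal minus the mean of that probe over the 4 arrays (y axis, the same in all panels); each point is 1 array and bars are the scanner software's error (1 SD). Both Tnfrsf9 probes are highest in P4, with differences of 3.81 and 3.94 from P1, Tnfrsf4 stands out in P3, and Cd27 spans 0.35 in all.

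The promoters of the 3 receptor genes of the TNF receptor superfamily that differed at least 2-fold between subsets are shown, since these genes differed in their pattern across subsets. All 3 lie on mouse chromosome 4. Sequences are from RefSeq, build GRCm38.p6, and run 5′ to 3′ over the 250 bases before an annotated transcript start. Promoter entries of 5 of the 8 genes were searched, and Tnfrsf9 has 2 annotated starts. Those of Cd28, Icos and Cd226 were not searched, although Cd226 also passed 2-fold between P2 and P1. The capitals mark matches on either strand to a form of the NF-kappaB motif, spelled GGG, 2 free bases, then TTTCC, and to TGANTCA, the AP-1 motif.
Tnfrsf9, first start, chr4:150919905-150920154, plus strand: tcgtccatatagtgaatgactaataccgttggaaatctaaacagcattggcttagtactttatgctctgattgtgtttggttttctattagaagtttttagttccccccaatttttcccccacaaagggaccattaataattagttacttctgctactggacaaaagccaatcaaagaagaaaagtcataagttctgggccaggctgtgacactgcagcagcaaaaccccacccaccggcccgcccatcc
Tnfrsf9, second start, chr4:150927749-150927998, plus strand: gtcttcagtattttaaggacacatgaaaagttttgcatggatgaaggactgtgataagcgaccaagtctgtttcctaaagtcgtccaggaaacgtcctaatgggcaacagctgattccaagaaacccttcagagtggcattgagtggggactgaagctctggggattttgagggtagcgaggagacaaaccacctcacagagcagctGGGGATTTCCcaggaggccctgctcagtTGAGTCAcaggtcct
Tnfrsf1b, chr4:145246871-145247120, minus strand: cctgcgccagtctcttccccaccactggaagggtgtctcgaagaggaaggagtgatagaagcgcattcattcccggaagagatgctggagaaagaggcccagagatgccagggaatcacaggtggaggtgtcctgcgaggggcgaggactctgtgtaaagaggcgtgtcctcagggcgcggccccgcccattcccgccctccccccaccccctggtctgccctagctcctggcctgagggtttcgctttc
Tnfrsf4, chr4:156013445-156013694, plus strand: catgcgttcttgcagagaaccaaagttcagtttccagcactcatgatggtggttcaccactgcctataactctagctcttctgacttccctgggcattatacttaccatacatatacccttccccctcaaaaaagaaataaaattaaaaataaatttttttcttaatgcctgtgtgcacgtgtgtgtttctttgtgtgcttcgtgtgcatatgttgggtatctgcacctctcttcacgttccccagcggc
The second Tnfrsf9 start has 1 match to the NF-kappaB motif, beginning 43 bases before the start, and 1 to the AP-1 motif, beginning 15 bases before it. Among 32851 promoter entries of the same length, 1.41% hold a match to the first and 6.75% to the second. The windows before the first Tnfrsf9 start and before Tnfrsf1b and Tnfrsf4 hold neither, and nor do those of Tnfrsf18 and Cd27. Also searched on both strands were the NFAT core GGAAA and the RUNX motif TGTGGT. The NFAT core, present in 55.6% of all entries, was found 3 times before the second Tnfrsf9 start, once of these within the NF-kappaB match, 2 times before the first, 1 time before Tnfrsf4 and 0 times before Tnfrsf1b. The RUNX motif, present in 14.05%, was found in 0 of these windows. A match describes the letters alone. The probes do not tell which Tnfrsf9 start was used.

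Tnfrsf1b followed the CD62L phenotype too, with smaller differences. It encodes TNF receptor 2, which costimulates CD8 T cells and, unlike TNF receptor 1, has no death domain. Its levels were 1.39 in P4, 1.70 in P3, 0.50 in P2 and 0.16 in P1, so that both CD62Llow subsets lay above both CD62Lhigh subsets. P4 was higher than P1 by 1.23 ± 0.40 (2.34-fold) and than P2 by 0.88 ± 0.40 (1.85-fold). P3 was higher than P1 by 1.54 ± 0.40 (2.91-fold) and than P2 by 1.20 ± 0.40 (2.30-fold). P4 and P3 did not differ beyond the scanner error (-0.32 ± 0.40), nor did P2 and P1 (0.34 ± 0.40). After normexp processing, P4 minus P3 was -0.405, just past that error.

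Tnfrsf4 stood out in P3 alone. It encodes OX40, which prolongs T cell expansion after priming. Its levels were 1.52 in P4, 2.86 in P3, 1.30 in P2 and 1.39 in P1. P4 was lower than P3 by 2.54-fold (-1.35 ± 0.40), and P3 was higher than P2 by 2.95-fold (1.56 ± 0.40) and than P1 by 2.78-fold (1.47 ± 0.40). P4, P2 and P1 lay within 0.21 of each other, inside the scanner error.

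Tnfrsf18, which encodes GITR, lies beside Tnfrsf4, with the 2 annotated starts 12.6 kb apart and 2 predicted genes between them. Its levels were 3.19 in P4, 3.66 in P3, 3.03 in P2 and 3.24 in P1. Like Tnfrsf4 it was highest in P3, but by less, with P4 minus P3 at -0.47 ± 0.40, P3 minus P2 at 0.63 ± 0.40 and P3 minus P1 at 0.42 ± 0.40. P4, P2 and P1 did not differ from each other beyond the scanner error.

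Cd27 varied least. It encodes a receptor that naive T cells already carry, and its loss from the surface marks late effector cells. Its levels were 1.88 in P4, 1.93 in P3, 1.78 in P2 and 1.59 in P1. The whole span, 0.35 or 1.27-fold between P3 and P1, was within the scanner error, and so were all 6 pairs. With other ways of processing, P3 minus P1 ranged from 0.35 to 0.43, past that error at its upper end.

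Icos, the inducible member of the CD28 family, was highest in P3. Its levels were 2.87 in P4, 3.46 in P3, 2.84 in P2 and 2.88 in P1. P4 was lower than P3 by 1.51-fold (-0.59 ± 0.40), and P3 was higher than P2 by 0.63 ± 0.40 and than P1 by 0.58 ± 0.40. P4, P2 and P1 lay within 0.05 of each other.

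Cd28 was highest in P2. Its levels were 3.83 in P4, 4.13 in P3, 4.65 in P2 and 3.91 in P1. P4 was lower than P2 by 1.76-fold (-0.82 ± 0.40), P3 was lower than P2 by 1.43-fold (-0.52 ± 0.40), and P2 was higher than P1 by 1.67-fold (0.74 ± 0.40). P4, P3 and P1 did not differ beyond the scanner error, with P4 minus P3 at -0.30 ± 0.40 and P4 minus P1 at -0.08 ± 0.40. With other ways of processing, P3 minus P2 ranged from -0.52 to -0.35 and P3 minus P1 from 0.23 to 0.42. Whether P3 differed from P2 and from P1 beyond the scanner error thus depended on the processing.

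Cd226, which encodes the adhesion and costimulatory receptor DNAM-1, had its lowest level in P2, where Cd28 was highest, and its highest level in P1. Its levels were 0.52 in P4, 0.46 in P3, -0.10 in P2 and 0.94 in P1. P2 was lower than P1 by 2.06-fold (-1.04 ± 0.40), just past 2-fold. P4 was higher than P2 by 1.54-fold (0.63 ± 0.40) and lower than P1 by 1.33-fold (-0.42 ± 0.40), the second just past the scanner error and inside it (-0.39) after quantile normalization. P4 and P3 were alike within that error (0.07 ± 0.40), and P3 was lower than P1 by 1.40-fold (-0.48 ± 0.40).

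Counted over the 8 genes, each by its brightest probe, P4 exceeded P1 by 2-fold or more in 2 genes, Tnfrsf9 and Tnfrsf1b, and lay below it by that much in 0, against 5.51% and 1.77% of all measured genes (7.28% in either direction). Against P2, 1 of 8 was higher, Tnfrsf9, and 0 were lower, against 4.88% and 3.43% of genes (8.31% in either direction). Against P3, 0 were higher and 1, Tnfrsf4, was lower, against 4.17% and 8.98% (13.1% in either direction). The median difference of the 8 was 0.05 for P4 minus P1, 0.19 for P4 minus P2 and -0.31 for P4 minus P3, beside medians over all measured genes of -0.06, 0.01 and 0.04. The counts are thus carried by single genes, and 5 of the 8 were within the scanner error between P4 and P1.

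**Figure D2:**
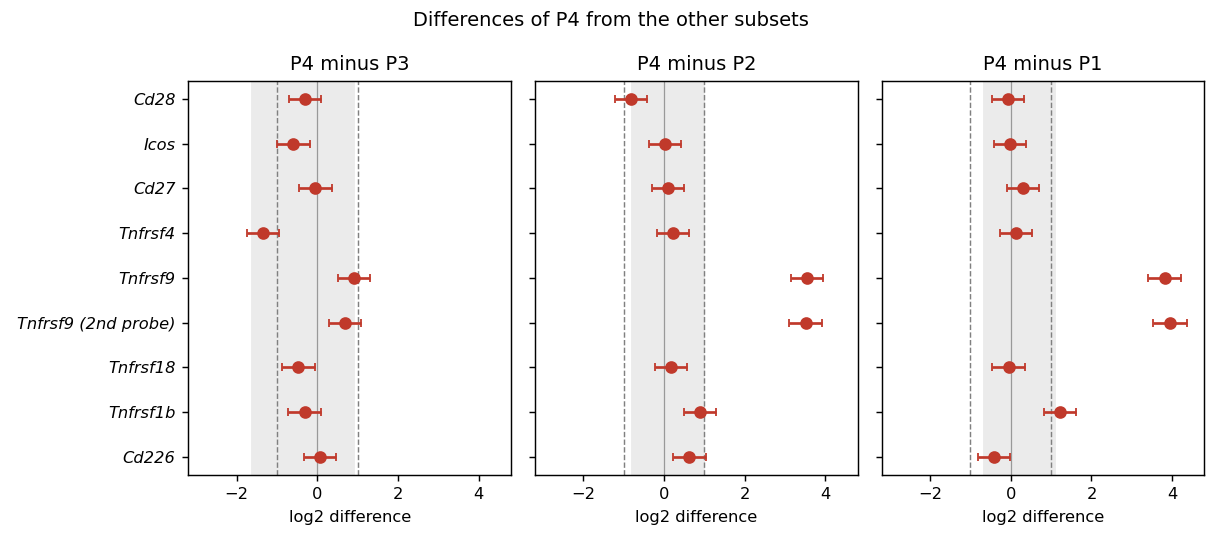
Log2 difference of P4 from P3, P2 and P1 (x axis) for each receptor probe (rows); bars are the 95% half-width from the scanner error, grey bands hold the middle 90% of measured genes and dashed lines mark 2-fold. Tnfrsf9 lies at 3.54 and 3.81 against P2 and P1, far outside the bands, and most other receptors lie within them.

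Between the other subsets, P3 exceeded P1 by 2-fold or more in 3 of 8 genes (Tnfrsf9, Tnfrsf1b and Tnfrsf4) and lay below it in 0, against 12.5% and 7.14% of genes (19.6% in either direction). It exceeded P2 in the same 3 and lay below it in 0, against 10.6% and 5.72% (16.3% in either direction). Both comparisons share the P3 array. For P2 minus P1, 0 of 8 were higher by 2-fold and 1, Cd226, was lower, against 4.77% and 2.56% of genes (7.33% in either direction).

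The subsets form a 2 by 2 layout, so the CD62Llow minus CD62Lhigh difference can be set side by side in CD44low cells (P4 minus P1) and in CD44high cells (P3 minus P2). Tnfrsf9 gave 3.81 in CD44low cells and 2.64 in CD44high cells. Tnfrsf1b gave 1.23 and 1.20, almost the same value in both CD44 classes. These 2 of 8 genes passed 2-fold upward in both, as did 2.38% of the 11830 genes detected in every subset. Detected means well above background. Tnfrsf4 gave 0.13 in CD44low and 1.56 in CD44high cells, Tnfrsf18 -0.06 and 0.63, and Icos -0.02 and 0.63, so that these 3 were higher with low CD62L in CD44high cells, with no difference beyond the scanner error in CD44low cells. Cd226 gave -0.42 and 0.56, and Cd28 -0.08 and -0.52. With 1 array per subset, none of these gaps between CD44 classes could be tested.

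**Figure D3:**
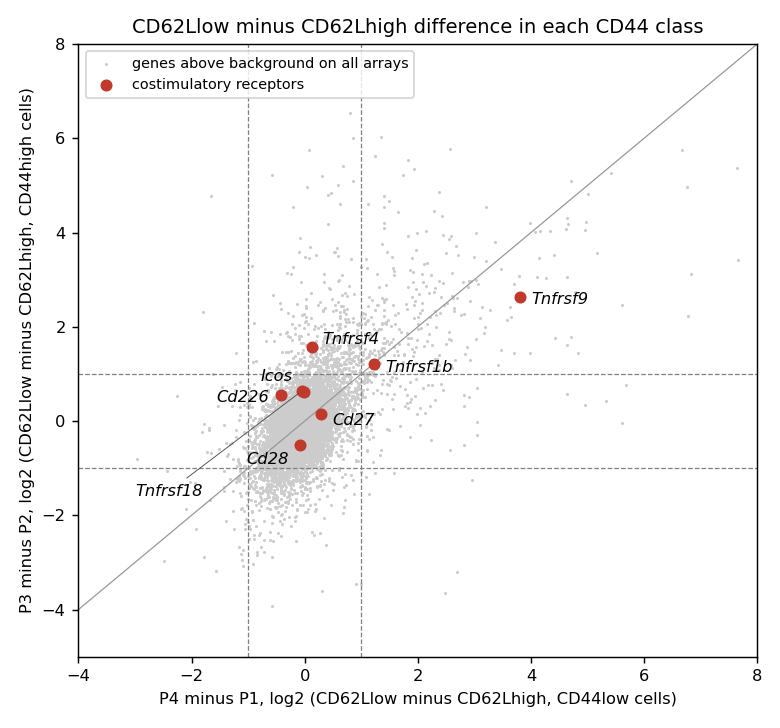
CD62Llow minus CD62Lhigh log2 difference in CD44low cells (x axis, P4 minus P1) and in CD44high cells (y axis, P3 minus P2) for the 8 receptor genes (red) and the 11830 genes above background on all arrays (grey); dashed lines mark 2-fold and the diagonal marks equal differences. Tnfrsf1b (1.23 and 1.20) lies on the diagonal, Tnfrsf9 (3.81 and 2.64) to the right of it and Tnfrsf4 (0.13 and 1.56) above it.

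Marker transcripts of regulatory and CD4 T cells also differed between subsets, and which cells made them was not tested. The 7 regulatory T cell markers (Foxp3, Il2ra, Ikzf2, Ikzf4, Lrrc32, Nrp1 and Gpr83), cells known to carry Tnfrsf9, Tnfrsf18, Tnfrsf4 and Tnfrsf1b, had a summed signal of 9.36 times the 75th percentile in P4, 13.5 in P3, 2.20 in P2 and 3.41 in P1. By 2-fold or more, P4 exceeded P1 in 5 of 7 of them and P2 in 7 of 7, and against P3, 1 was higher and 2 were lower in P4. The defining gene Foxp3 was dim, with levels of -2.50 in P4, -1.57 in P3, -3.81 in P2 and -3.50 in P1. For Nrp1 the probes differed in sign for P4 minus P2. The CD4 T cell gene Cd4 had levels of -0.39 in P4, 0.22 in P3, -0.38 in P2 and -0.40 in P1, and Cd40lg was not well above background in any subset. The third CD4 T cell marker, Zbtb7b, which encodes the CD4 lineage factor ThPOK, had levels of -2.39 in P4, -0.64 in P3 and -2.87 in P2 and was not well above background in P1. For Zbtb7b, P4 was at least 4.85-fold and P3 at least 16.3-fold higher than P1, and P4 was 3.36-fold lower than P3. The part of CD4 T cell and regulatory T cell transcripts in the Tnfrsf9 and Tnfrsf1b results was not tested.

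P3 held transcripts of antigen-presenting cells, and their part in the levels of the genes highest there was not tested. The 6 class II and type 2 dendritic cell markers summed to 7.02 in P4, 209 in P3, 5.39 in P2 and 2.06 in P1, with P4 below P3 by 2-fold or more in 6 of 6. The 7 type 1 dendritic cell markers summed to 1.05 in P4, 25.6 in P3, 2.15 in P2 and 0.286 in P1. Xcr1, Clec9a, Cd207 and Batf3 were well above background in P3 and not in P4, P2 or P1. Clec9a and Batf3 had levels of 0.55 and 0.79 in P3. Cd207, at -4.97 in P3, lay below the faintest signal clear of background in P4 (-4.82), P2 (-4.58) and P1 (-4.67), so its detection shows no excess. Xcr1 (-3.79 in P3) was higher there by at least 2.04-fold against P4, 1.83-fold against P1 and 1.73-fold against P2. The 7 macrophage and monocyte markers summed to 2.95 in P4, 27.8 in P3, 3.29 in P2 and 2.53 in P1. The 6 natural killer cell markers summed to 3.24 in P4, 24.1 in P3, 5.39 in P2 and 0.266 in P1, with Ncr1 not well above background in any subset. B cell markers summed to 4.54 in P4, 7.45 in P3, 4.50 in P2 and 5.30 in P1, and the 2 gamma delta T cell markers on the array to 0.288, 0.314, 0.303 and 0.296 in the same subsets. The 4 plasmacytoid dendritic cell markers summed to 60.8 in P4, 43.8 in P3, 68.0 in P2 and 63.5 in P1, but in P4, P2 and P1 most of the sum is 1 probe of Siglech, whose 2 probes differed in sign for P4 minus P3 and P3 minus P1. Of the others, Ly6d was lower in P4 than in P3 by 13.4-fold (-3.74) and Tcf4 by 8.98-fold (-3.17), the second with probes of both signs, and Bst2 was within 2-fold. P4 also exceeded P1 by 2-fold or more in 4 of 5 measured class II markers and 5 of 5 natural killer cell markers. It did so in 2 of 3 type 1 dendritic cell, 1 of 4 macrophage and monocyte, 0 of 3 B cell and 0 of 4 plasmacytoid dendritic cell markers. Whether other cells account for the P3 levels of Tnfrsf9, Tnfrsf4, Tnfrsf18, Icos and Tnfrsf1b was not tested. Nor was it tested for the P4 levels of Tnfrsf9 and Tnfrsf1b. In sorted bulk cells, more cells with a transcript and more transcript per cell cannot be told apart.

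**Figure D4:**
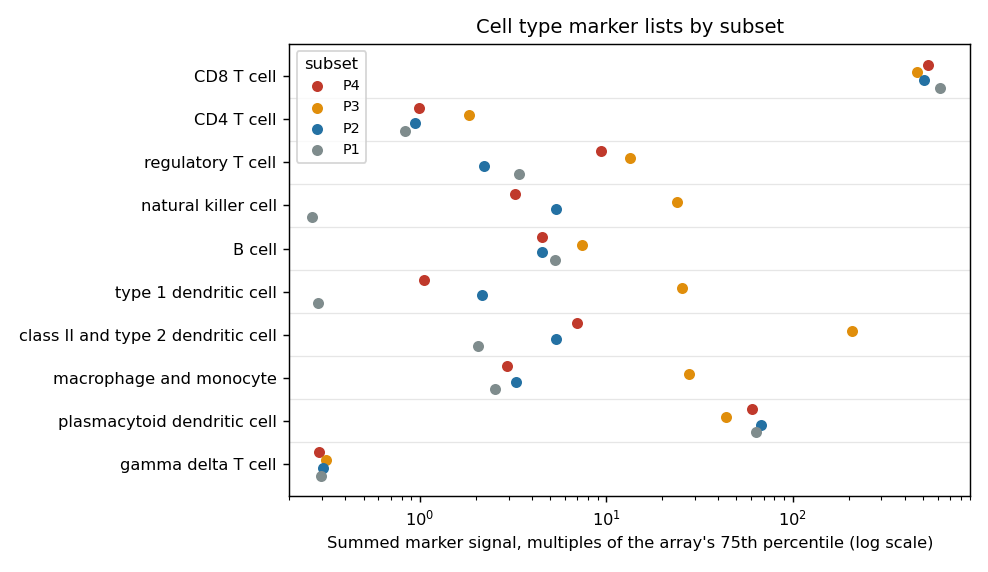
Summed signal of cell type marker lists in each subset, in multiples of the array's 75th percentile (x axis, log scale); each point is 1 array. CD8 T cell markers are alike in all subsets, class II markers reach 209 in P3 against 7.02 in P4, and regulatory T cell markers are higher in P4 (9.36) and P3 (13.5) than in P2 and P1.

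The receptors' ligands were compared next, since T cells and antigen-presenting cells both make some of them. Counts in the marker lists above and the lists below stand beside the shares of all measured genes. For P4 minus P1, 5.51% were higher and 1.77% lower by 2-fold or more. The shares were 4.88% and 3.43% for P4 minus P2, and 4.17% and 8.98% for P4 minus P3. All 11 ligand genes were on the array, and Tnfsf18 and Nectin2, which encode ligands of GITR and CD226, were not well above background in any subset. Of the 8 measured in P4 against P1, 1 was higher by 2-fold or more and 0 lower, with a median of 0.64. The higher one was Tnfsf4, which encodes the OX40 ligand. Its level was -2.17 in P4 and -0.43 in P3, and it was not well above background in P2 and P1, so that P4 was at least 5.66-fold higher than P1 and at least 5.34-fold higher than P2. Such bounds take for the dim subset the faintest signal that its array held well above background.

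Against P2, 3 of 8 ligand genes passed 2-fold upward in P4 and 0 downward (median 0.78), namely Tnfsf4, Tnfsf9, the 4-1BB ligand gene, at 1.05, and Lta, the lymphotoxin alpha gene, at 1.09. Tnfsf9 had levels of -1.43 in P4, -0.20 in P3, -2.48 in P2 and -2.16 in P1, and was thus ordered P3, P4, P1, P2. Against P3, 4 of 9 were lower by 2-fold or more in P4 and 0 higher (median -0.57). These were Tnfsf4 (-1.74), Tnfsf9 (-1.22), Cd70, the CD27 ligand gene, at least 3.85-fold lower, and Icosl (-1.59), whose 2 probes differed in sign. Activated T cells and antigen-presenting cells are both known to make ligands of this kind. The class II and dendritic cell marker sums were also highest in P3, and their part in the ligand levels was not tested.

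Inhibitory counterparts of these receptors were high in P4 and P3 in 3 cases. Of 5 on the array, P4 exceeded P1 by 2-fold or more in 3 and lay below it in 0 (median 2.20). Ctla4, whose product competes with CD28 for CD80 and CD86, had levels of 0.76 in P4, 1.69 in P3, -1.02 in P2 and -1.44 in P1. Tigit, the competitor of CD226, had levels of 0.31 in P4, 1.32 in P3, -2.15 in P2 and -3.83 in P1. P4 thus exceeded P1 by 2.20 in Ctla4 and 4.15 in Tigit, against -0.08 in Cd28 and -0.42 in Cd226. The third was Pdcd1 (5.00). Btla and Cd96 lay within 2-fold, at -0.51 and -0.03 for P4 minus P1. The same 3 were higher in P4 than in P2 (median 1.78), and 1, Tigit at -1.004, was lower in P4 than in P3 (median -0.19).

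Of the other 23 genes of the TNF receptor superfamily, 15 were measured in P4 against P1, with 1 passing 2-fold upward and 0 downward (median -0.35). The higher one, Tnfrsf21, which encodes death receptor 6, gave at least 3.31-fold, but its second probe differed in sign and its spot lay in a locally bright area of the P4 array. Tnfrsf25, which encodes death receptor 3, a further costimulatory receptor, had levels of 2.03 in P4, 3.03 in P3, 2.49 in P2 and 2.99 in P1, and differed by -0.96 for P4 minus P1. Tnfrsf1a, which encodes TNF receptor 1, had levels of 2.35 in P4, 2.40 in P3, 1.98 in P2 and 2.13 in P1, with all pairs within 2-fold, unlike Tnfrsf1b. Fas lay within 2-fold of every other subset in P4, at 0.25 against P3, 0.55 against P2 and -0.19 against P1. Tnfrsf8, Tnfrsf11b, Tnfrsf17 and Edar were not well above background in any subset.

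Against P2, 1 of 17 of these genes was higher in P4 (Tnfrsf21) and 1 was lower (Cd40, whose P2 spot lay in a locally bright area), with a median of -0.10. Against P3, 1 of 18 was higher, Tnfrsf14 at 1.41, which encodes HVEM, the BTLA and LIGHT receptor, and 5 were lower, with a median of 0.03. The second Tnfrsf14 probe gave 0.30, below 2-fold. Lower in P4 were Tnfrsf11a (-1.86), which encodes RANK, Tnfrsf13c (-1.79), which encodes the B cell receptor for BAFF and whose probes differed in sign, and, as bounds, Cd40 (-2.98), Ngfr (-2.59) and Ltbr (-2.26). The antigen-presenting cell marker sums were highest in P3 as well, and their part in these differences was not tested.

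Among signalling genes downstream of the receptors, few differed by 2-fold between P4 and the other subsets. Of 16 genes of CD28 and ICOS signalling, 0 differed by 2-fold between P4 and each other subset, with medians of 0.16 against P3, -0.11 against P2 and -0.15 against P1. The largest was Malt1, which encodes a paracaspase of NF-kappaB signalling, at -0.97 for P4 minus P2. Pik3cd, the leukocyte phosphatidylinositol 3-kinase gene, was 0.77 higher in P4 than in P3. Of 22 TRAF and NF-kappaB genes, 1 passed 2-fold, Nfkbiz at -1.17 for P4 minus P2, and medians were 0.00, -0.07 and -0.11 against P3, P2 and P1. The second Nfkbiz probe gave -0.35 for P4 minus P2, below 2-fold. Traf1, an adaptor of 4-1BB and TNF receptor 2, had levels of 4.33 in P4, 4.83 in P3, 4.44 in P2 and 4.13 in P1, and Traf2 of 4.43, 4.24, 4.17 and 4.21. Both lay within 2-fold in every pair. In pairs without P4, Fyn, a kinase gene of the first list, was 2.28-fold higher in P3 than in P1, and Tank, of the second, was 2.41-fold higher in P3 than in P2.

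Among 12 genes known to be induced by costimulation, 5 of 11 measured were higher by 2-fold or more in P4 against P1 and 0 lower (median 0.70). They were the interferon gene Ifng (4.43), the transcription factor genes Maf (3.98) and Tbx21 (2.82), and the cytokine genes Il10, at least 25.9-fold, and Il21, at least 2.66-fold. Against P2, Maf (3.64), Il10 (at least 24.5-fold) and Il21 (at least 2.51-fold) were higher and Tbx21 (-1.30) was lower (median 0.06). Against P3, Myc (1.17) was higher and 5 of 12 were lower, namely Birc5 (-2.76), a cell division gene, Il21 (-1.71), Tbx21 (-1.61) Ifng (-1.31) and Bcl2l1 (-1.08) (median -0.56). Bcl2l1, which encodes the survival protein BCL-xL, had levels of 2.66 in P4, 3.73 in P3, 3.51 in P2 and 1.96 in P1. By this probe it was highest in the CD44high subsets, but its 5 probes differed in sign for P3 minus P1. For P4 minus P3 its probes ranged from -1.08 to -0.03. Mcl1 lay within 2-fold in every pair.

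Of 6 regulators, Zc3h12a was the one that passed 2-fold against P4. It encodes Regnase-1, an RNase known to degrade transcripts of activated T cells, and it had levels of -3.05 in P4, -1.37 in P3, -0.32 in P2 and -0.63 in P1. The genes of the Roquin proteins, Rc3h1 and Rc3h2, known in mice to repress Icos and Tnfrsf4 transcripts, were within 2-fold in each pair, at -0.01 and -0.03 for P4 minus P1. The ubiquitin ligase genes Cblb, Cbl and Itch were within 2-fold as well. The median of the 6 was -0.09 against P3, -0.09 against P2 and -0.13 against P1.

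**Figure D5:**
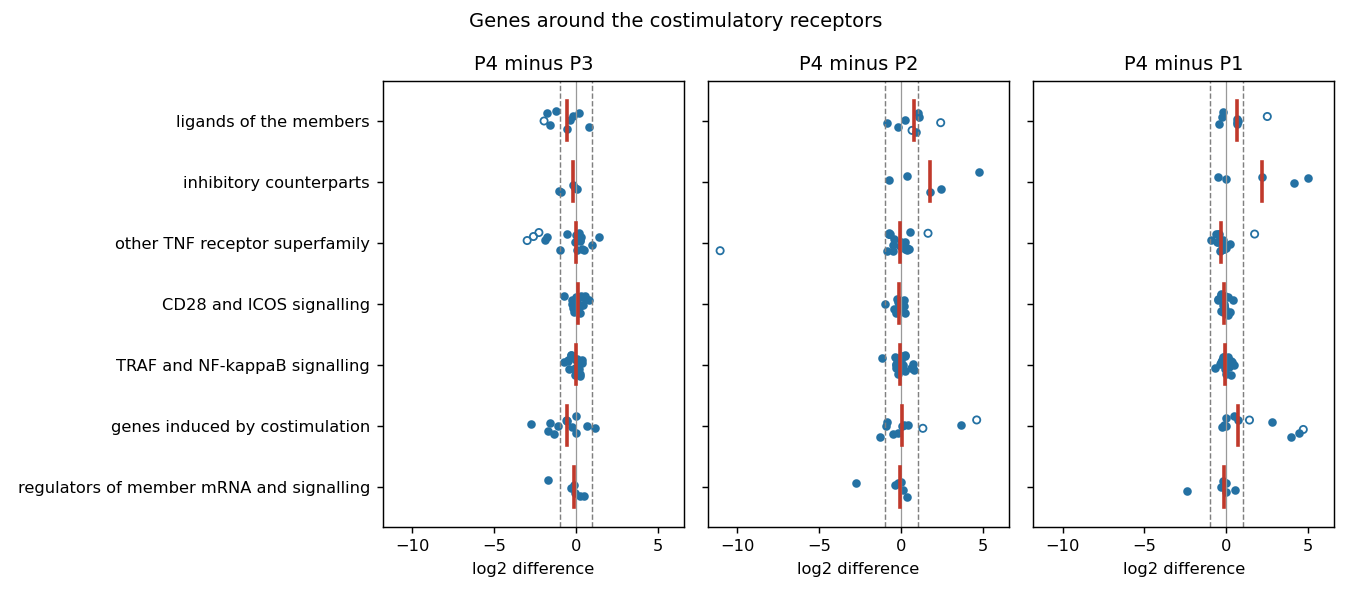
Log2 difference of P4 from P3, P2 and P1 (x axis) for genes around the receptors (rows are lists); filled points are measured in both subsets, open points are bounds, red bars are list medians and dashed lines mark 2-fold. The inhibitory counterparts reach medians of 1.78 against P2 and 2.20 against P1, while the medians of both signalling lists stay near 0. The open point at the far left against P2 is Cd40, whose P2 spot lay in a locally bright area.

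Likeness to a receptor's profile was the largest gap between 2 genes' profiles over the 4 arrays, each centred on its own mean, and 11829 genes were compared. The number of genes within a fixed gap depends on how widely a profile spans, so these numbers are not comparable between receptors. Within 0.5 of Tnfrsf9 lay 4 genes, Utf1 (0.38), Cited4 (0.39), Chn2 (0.40) and Bcat1 (0.46). For Tnfrsf4, 322 genes lay within 0.5, and the closest were Upk1a, Ap1s2, Cfp and Slc8b1, at 0.10 to 0.12. For Tnfrsf1b, 358 genes did, with Tst, Gabarapl1, Rmdn2 and Enpp5 closest, at 0.09 to 0.11. Closest to Cd226 were Gm5129, Gm28321, Ggta1 and Lrrc8a, at 0.07 to 0.12. Closest to Cd28 were Dnaja4, 1700016H13Rik, Tmem131l and Me2, at 0.05 to 0.07. Closest to Icos were H2ac1, Tmem104, Tead2 and Cd4, at 0.01 to 0.03. Closest to Tnfrsf18 were Scd2, Septin9, Ift122 and Rnf166, at 0.01 to 0.03. Closest to Cd27 were Ttf2, Timm8b, Oxr1 and Slc35c2, at 0.02 to 0.03. These 5 profiles are flatter, and 2023 to 7853 genes lay within 0.5 of each. With 4 points a profile, likeness is a description of these arrays.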

How the data were processed

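Cy3-labelled cRNA was prepared from total RNA of each sorted subset and put on 1 array, per the labels' protocols. The authors read spot intensity with Agilent Feature Extraction 11.0.1.1, per the file headers and the submitters' processing notes. The processed signal is background-subtracted and not normalized between arrays, per the file headers. Flags of other kinds (above background, saturated, outlier) were also taken as deposited. The authors' deposited log2 value table holds 26188 probes with the same sorted values in each column (median 8.85) and served as an alternative. The sources used here do not name the tool that made it.

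The 75th percentile of processed signal, 453 in P4, 799 in P3, 480 in P2 and 481 in P1, was subtracted on the log2 scale. Outlier spots (122 to 152 per array) were dropped, repeated spots were averaged, and 0 spots were saturated. Accessions were named through a RefSeq gene table of GRCm38.p6, which is not the build named in the array headers. Positions, chromosomes and the distance between starts are those of GRCm38.p6 and were used for the promoters alone, not for the probes. The brightest probe stood for a gene. Genes clear of background on at least 1 array of a pair were counted. Dim values below the array's faintest signal clear of background were raised to it, which gives bounds, and other dim values were kept. An area was called locally bright where at least 2 (P4, P2, P1) or 4 (P3) neighbours within 32 position units exceeded their own spots on every other array by 2-fold.

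Members, lists and rules were chosen with earlier results of these data known. Named were all 8 receptors, up to 4 genes per list and pair with the largest difference or those in a count, the 4 genes most like each receptor, and cell type markers. Tnfrsf1a, Tnfrsf25, Fas, Traf1, Traf2, Mcl1, Rc3h1 and Rc3h2 may fall outside that rule and were named after their values were seen. Pvrig, Trdc and Tcrg-C1 had no probe by accession. The other sort marker gene is not reported here. The alternatives tried were quantile normalization, a median scaling, normexp (offset 50) on median signals, 2 other filters on dim genes, a mean over probes, outlier spots kept, the authors' values, a 4-fold threshold and leaving out spots in locally bright areas. Python 3.11.15, numpy 2.4.6, pandas 2.3.3, scipy 1.17.1, matplotlib 3.10.9, R 4.3.3 and limma 3.58.1 were used.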

Additional observations from a re-analysis of the deposited data

Results flagged for a closer look

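Cd226 differed in opposite directions with CD62L in the CD44 classes: the CD62Llow minus CD62Lhigh difference was -0.42 in CD44low cells (P4 minus P1) and 0.56 in CD44high cells (P3 minus P2), each beyond the scanner error's half-width of 0.40 but under 2-fold. The first was inside that half-width under quantile normalization (-0.39), median scaling (-0.3997) and in the authors' deposited table (-0.39). The gap between the classes was not tested, and the half-width as the limit was chosen after the values were seen.

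Among the marker genes, 2 from the plasmacytoid dendritic cell list had opposite differences with CD44, each beyond 2-fold. For Ly6d, the CD44high minus CD44low difference was 3.74 in CD62Llow cells (P3 minus P4) and -1.99 in CD62Lhigh cells (P2 minus P1). For Tcf4 it was 3.17 (P3 minus P4) and -1.20 (P2 minus P1), though its probes differed in sign for P4 minus P3. Neither gap was tested.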

How the results depend on the processing

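All 432 values of single receptor differences under the alternatives moved by less than 1 SD of the scanner error, and 0 of those past 2-fold changed sign. Tnfrsf9 ranged from 3.67 to 3.88 for P4 minus P1, 3.47 to 3.56 for P4 minus P2 and 0.79 to 0.90 for P4 minus P3. Of 60 counts of receptors differing by 2-fold, 54 stayed within 1.5 times. At 4-fold the counts were 1 for P4 minus P1, 0 for P4 minus P3, 1 for P3 minus P1, 0 for P2 minus P1 and 1 for P3 minus P2. After normexp the P2 minus P1 count was 0, with Cd226 at -0.93, and the cause was not tested. Of 336 list counts, 300 stayed within 1.5 times and 36 did not. The all-gene median of P3 minus P1 was -0.11, and -0.0031 after normexp. No paired analysis was possible because each subset has 1 array, and for the same reason no replicate could be left out. Precision is limited by 1 array per subset and by 1 spot per probe.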
